A study of Homo sapiens with 9 samples.

Results

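The sterol and fatty acid synthesis genes followed here are 33 genes of the SREBP pathway, taken by name from a table of 23610 genes. The enzymes, transcription factors, retention proteins and transporters are grouped below by role, and the gene now named SC5D is listed under its older symbol SC5DL. The genes were followed in 9 RNA-seq libraries of GIST-T1, an established human cell line from a gastrointestinal stromal tumor. The libraries form 3 groups of 3. Cells of the first group carried an sgRNA against ETV1, and cells of the second an sgRNA against HAND1. Cells of the control group carried an sgRNA against Luciferase, a gene that human cells lack. ETV1 is an ETS family transcription factor on which GIST cells are known to depend, and HAND1 is a basic helix-loop-helix factor known from mesoderm and heart development. The labels enter all 3 sgRNAs under knockdown and give no other treatment. They name each sgRNA only by its target, and do not state the guide sequences, the number of guides per target or the time after delivery. Whether replicate libraries stem from separate cultures is not stated either, and each p-value therefore reflects a spread between libraries that may be technical.

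Cells make cholesterol from acetyl-CoA through mevalonate, farnesyl diphosphate, squalene and lanosterol, and they make fatty acids from the same acetyl-CoA. Both routes are switched on by the SREBP transcription factors, which are held in the endoplasmic reticulum by SCAP and the INSIG proteins while sterols are plentiful. When sterols run low, SCAP carries the SREBPs to the Golgi apparatus, where they are cut, and the freed part enters the nucleus and binds sterol regulatory elements of the synthesis genes. INSIG1 is itself a target of this switch, so its transcript is often read as a sign of its state. Proliferating tumor cells use both routes for new membranes.

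The annotated promoters of these genes were set beside those of all protein-coding genes, whether or not GIST-T1 expresses them. Promoters of expressed genes alone were not compared. The 250 bases before each start were searched on both strands for the sterol regulatory element TCACNCCAC and its core CACNCCAC (contained in the full element). The SREBP motif TCACNTGA was also sought, which is a palindrome only where N is G. The other motifs were the CCAAT box, the GC box GGGCGG, the ETS motif CCGGAAG and the HAND motif CATCTG. RefSeq promoters (GRCh38.p14) were given for 29 of the 33 genes, 41 promoters in all. The CCAAT box stood in 22 of these 41 promoters (53.7%), against 32.7% of 22199 protein-coding promoters. The GC box stood in 36 of 41 (87.8%), against 53.7%. The core of the sterol element stood in 7 of 41 (17.1%), against 5.13%. The ETS motif was found in 5 of 41 (12.2%), against 10.7% of all promoters, and the HAND motif in 2 of 41 (4.88%), against 10.2%. Some genes have overlapping promoters, as ACLY and INSIG2 do, so the same site can count more than once. By gene, the CCAAT box stood in 18 of 29, the GC box in 28, the core in 7, the ETS motif in 4 and the HAND motif in 2. The ETS motif stood at CYP51A1, FDPS, IDI1 and INSIG2, and the HAND motif at FADS2 and LSS. These are matches of letters, and no binding was measured.

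The stretches below are those of the 3 called genes with a printed promoter. Then come the SREBP gene with the full sterol element, a retention gene with the core, and a sterol isomerase gene with the SREBP motif. Each runs 5′ to 3′ on the plus strand of GRCh38.p14 (RefSeq) and lies upstream of the annotated start. Capitals mark the CCAAT box (ATTGG on the other strand) and, in the last 3, the sterol element, its core or the SREBP motif. GC boxes are left in lower case. The stretches cover chr10:100346983-100347123 for SCD, chr12:109573700-109573729 for MVK, chr11:65111798-65111827 for TM7SF2, chr22:41832855-41833078 for SREBF2, chr7:155297628-155297775 for INSIG1 and chrX:48521681-48521710 for EBP.
SCD: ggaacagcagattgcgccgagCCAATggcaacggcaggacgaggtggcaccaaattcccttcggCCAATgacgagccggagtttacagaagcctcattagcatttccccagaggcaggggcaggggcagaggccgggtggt
MVK: CCAATgttcaagcctATTGGtaaaggtact
TM7SF2: ATTGGctggtgtgctgggcccagcatgggc
SREBF2: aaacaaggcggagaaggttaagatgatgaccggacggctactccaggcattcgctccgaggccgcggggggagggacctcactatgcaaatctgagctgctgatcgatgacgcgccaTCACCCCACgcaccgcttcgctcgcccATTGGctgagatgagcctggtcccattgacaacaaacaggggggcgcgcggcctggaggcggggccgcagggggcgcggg
INSIG1: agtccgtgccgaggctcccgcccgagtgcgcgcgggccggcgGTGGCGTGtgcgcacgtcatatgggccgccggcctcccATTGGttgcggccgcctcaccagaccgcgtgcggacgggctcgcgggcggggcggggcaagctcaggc
EBP: TCAGGTGAaaatggcgccacgcgcgggggc
SCD and MVK each show a pair of CCAAT boxes in these stretches. SREBF2 was the only gene of the 29 with the full sterol element, at -133 from its start, or 1 of 41 promoters (2.44%), against 0.883% of all promoters. A core also starts at -114 in SCD and runs past the end of the printed stretch. The promoters of the 29 genes held the SREBP motif at 2 places, INSIG1 (-56) and EBP (-127). These are 4.88% of the 41 promoters, close to the 3.25% of all promoters. Only the INSIG1 match, TCACGTGA, is a palindrome, and the EBP match reads TCAGGTGA.

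As a check of the labels, ETV1 averaged 11.4 FPKM under its own sgRNA and 39.7 FPKM under Luciferase sgRNA, and HAND1 averaged 38.3 FPKM under its own sgRNA and 114 FPKM under Luciferase sgRNA. Under ETV1 sgRNA, HAND1 averaged 132 FPKM, above Luciferase sgRNA with no overlap (log2 difference 0.21, limma, adjusted p = 0.244). FPKM give fragments per length of transcript and per amount of mapped fragments in a library. The GIST markers KIT and ANO1 lay between 156 and 218 FPKM in every library, with KIT lowest under HAND1 sgRNA. The marker CD34 averaged 1534 FPKM under ETV1 sgRNA and 1680 FPKM under Luciferase sgRNA, lower with no overlap. ANO1 averaged 172 and 165 FPKM in these groups, higher with no overlap, while KIT, GPR20 and PRKCQ overlapped. Adipocytes and hepatocytes also make these lipids. Of the adipocyte markers, FABP4 ranged from 384 to 641 FPKM, whereas ADIPOQ, PLIN1 and CIDEC reached at most 0.284, 0.255 and 0.441 FPKM in any library. The hepatocyte markers ALB, APOA1 and TTR reached at most 1.16, 1.00 and 0.153 FPKM. No read counts are given, so the absolute depth is unknown. Depth relative to Luciferase sgRNA replicate 1 ranged from 0.637 to 0.953 in the other 8 libraries. Luciferase sgRNA replicate 3 stood apart, with the highest sum of FPKM and with higher values of short transcripts, and differences without it are given below.

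All 33 genes were detected in all 9 libraries, and their levels covered a wide range. The highest was SCD, the desaturase that makes monounsaturated fatty acids, with a mean over the 9 libraries of 202 FPKM, above 96.9% of the 11348 genes tested. DHCR7, a reductase of the final steps of cholesterol synthesis, followed with 146 FPKM, and FASN, the fatty acid synthase, with 130.5 FPKM. The lowest were FADS1, a desaturase of polyunsaturated fatty acids, with 4.55 FPKM, INSIG2 with 3.19 FPKM and the efflux transporter ABCA1 with 0.631 FPKM. FPKM are per length, so these levels can be compared between genes only roughly. Overlapping genes and the raised short transcripts of Luciferase sgRNA replicate 3 also enter them. ABCA1 lay under the minimum mean of 1 FPKM and was not tested, leaving 32 genes; it averaged 0.661 ± 0.0334 FPKM under ETV1 sgRNA, 0.517 ± 0.148 FPKM under HAND1 sgRNA and 0.716 ± 0.134 FPKM under Luciferase sgRNA (SD, n = 3 each).

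**Figure D1:**
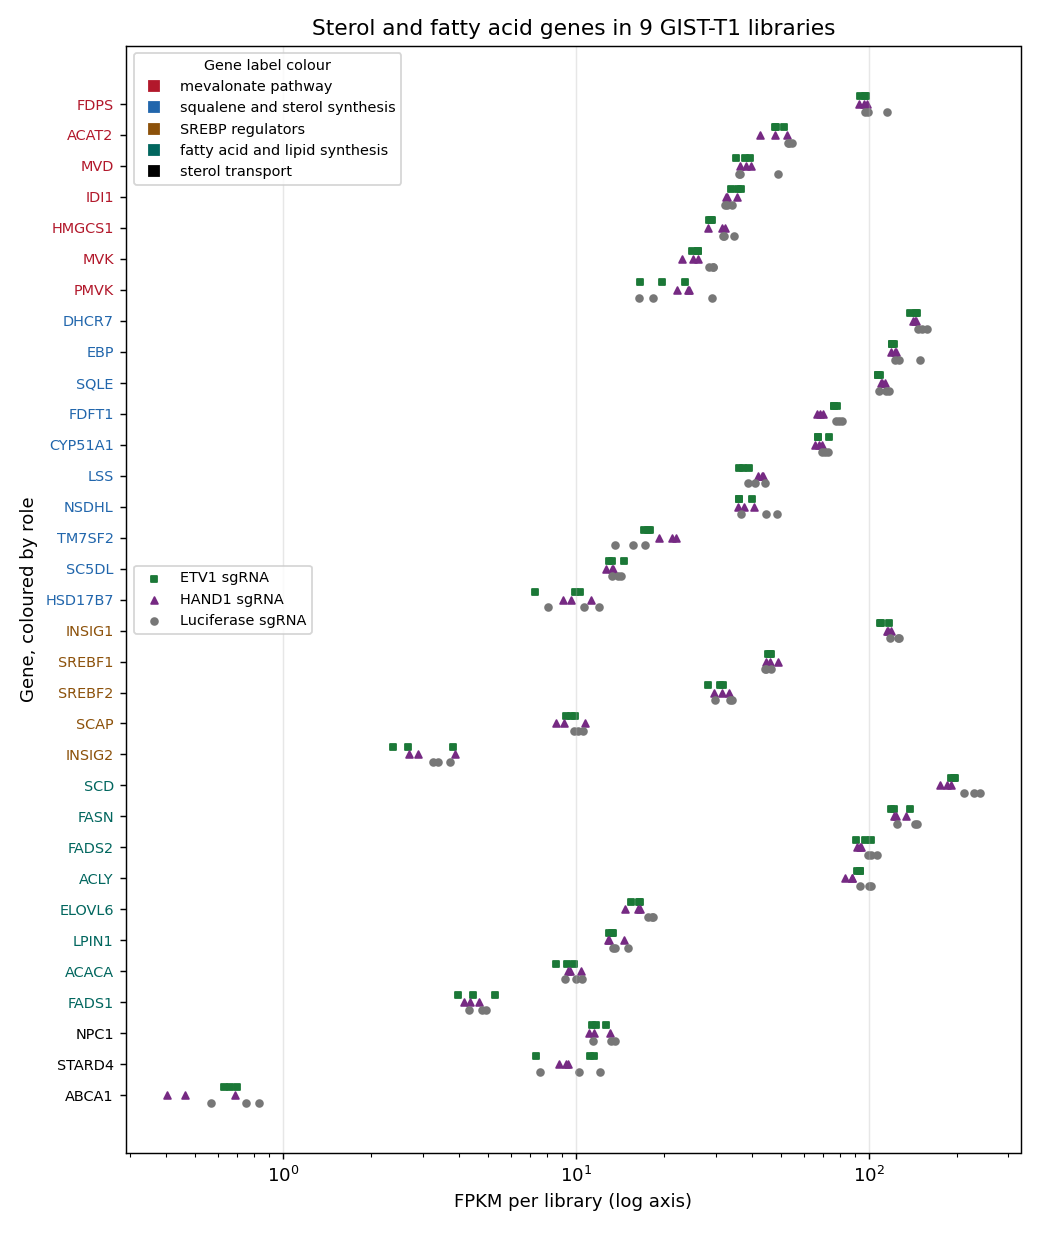
Level of each of the 33 genes in each library, in FPKM on a log axis. Points are single libraries, coloured by sgRNA, and gene names are coloured by role; SCD is the highest gene and ABCA1 the lowest.

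Differences between libraries were small for most of these genes. Among the 32 tested genes, the ratio of the highest to the lowest of the 9 libraries was smallest for SQLE, the squalene epoxidase, at 1.09. It was largest for PMVK, a kinase of the mevalonate pathway, at 1.77. DHCR7 measured 138, 144 and 146 FPKM under ETV1 sgRNA, 145, 143 and 142 FPKM under HAND1 sgRNA, and 158, 147 and 152 FPKM under Luciferase sgRNA. The 3 libraries of each sgRNA group lay below the 3 Luciferase libraries, and the test did not call the gene in either comparison.

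The first comparison asks what an sgRNA against ETV1 did to the pathway. None of the 32 tested genes was called at an adjusted p under 0.05 (limma on log2(FPKM + 1), adjusted over all genes tested), where 0.203% of all tested genes were called. At an unadjusted p under 0.05, 6 of the 32 were lower and 0 higher under ETV1 sgRNA, against 3.60% lower and 4.59% higher among all genes. Fewer cells in a state and less RNA per cell cannot be told apart in such bulk libraries. The log2 difference was below 0 for 28 of the 32 genes (87.5%), against 53.1% of all genes, with a median of -0.09, against -0.01. The 3 ETV1 sgRNA libraries did not overlap the 3 Luciferase libraries for 10 of the 32 genes (31.2%), against 12.9% of all genes. In all 10 the ETV1 sgRNA libraries were lower. Of the 11348 genes tested, 681 were lower and 781 higher in this way. The 10 were SCD, MVK, HMGCS1, INSIG1, ELOVL6, DHCR7, EBP, ACAT2, ACLY and LPIN1. The 95% interval of the difference lay within 0.5 log2 units of 0 for 31 of the 32 genes, and the differences themselves ran from -0.22 to 0.18.

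SCD had the smallest p of the group under ETV1 sgRNA. It measured 196, 197 and 190.4 FPKM under ETV1 sgRNA, against 239.5, 229 and 212 FPKM under Luciferase sgRNA. The groups did not overlap, and the lowest Luciferase library was replicate 3. The log2 difference was -0.22 (SE 0.06, limma, adjusted p = 0.319). INSIG1, which retains SCAP in the endoplasmic reticulum, averaged 112 ± 4.35 FPKM under ETV1 sgRNA and 123 ± 4.70 FPKM under Luciferase sgRNA (SD, n = 3 each), a difference that did not pass the test either (log2 -0.14).

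The second comparison asks the same of an sgRNA against HAND1. Of the 32 genes, 4 were called (12.5%), against 6.60% of all tested genes. SCD, FDFT1 and MVK fell under HAND1 sgRNA, against 2.93% of all genes called lower, and TM7SF2 rose, against 3.67% called higher. At an unadjusted p under 0.05, 7 genes were lower and 1 higher, against 9.83% and 10.5% of all genes. The log2 difference was below 0 for 27 of 32 genes (84.4%), against 53.9% of all genes, and its median was -0.09, against -0.01. The 3 HAND1 sgRNA libraries did not overlap the 3 Luciferase libraries for 9 of the 32 genes (28.1%), a share close to the 25.7% of all genes. They were lower for 8 of the 32 (25%), namely SCD, FDFT1, MVK, ACLY, ELOVL6, FADS2, ACAT2 and DHCR7, and higher for TM7SF2 (3.12%). Of the 11348 genes tested, 1446 were lower and 1472 higher in this way. Both comparisons use the same 3 Luciferase libraries. Some of the GIST markers differed between the same libraries. KIT averaged 159.9 ± 4.51 FPKM under HAND1 sgRNA and 209 ± 11.3 FPKM under Luciferase sgRNA, GPR20 45.1 ± 1.35 and 81.6 ± 7.04 FPKM, and PRKCQ 3.67 ± 0.149 and 6.84 ± 0.232 FPKM (SD, n = 3 each), all lower with no overlap. ANO1 averaged 170.1 ± 2.31 FPKM under HAND1 sgRNA and 165 ± 5.69 FPKM under Luciferase sgRNA, CD34 1762 ± 50.7 and 1680 ± 30.5 FPKM (higher with no overlap), and ETV1 40.8 ± 0.960 and 39.7 ± 2.42 FPKM. The part of these markers in the result was not tested.

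SCD measured 191, 175 and 185 FPKM under HAND1 sgRNA, against 239.5, 229 and 212 FPKM under Luciferase sgRNA. All 3 HAND1 sgRNA libraries were lower, and the nearest control was Luciferase replicate 3. The mean fell by 19.0%, and the log2 difference was -0.30 (SE 0.06, 95% interval -0.44 to -0.17, limma, adjusted p = 0.0136).

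FDFT1 is squalene synthase, which joins farnesyl diphosphate molecules and commits them to sterols. It measured 69.9, 68.4 and 66.7 FPKM under HAND1 sgRNA, against 79.4, 77.1 and 81.3 FPKM under Luciferase sgRNA. The groups were well separated compared with their spread, and the mean fell by 13.8%. The log2 difference was -0.21 (SE 0.05, 95% interval -0.31 to -0.11, limma, adjusted p = 0.0204). Under ETV1 sgRNA the gene measured 77.8, 76.3 and 76.4 FPKM, values that overlapped the lowest control, with a log2 difference to Luciferase sgRNA of -0.04.

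MVK, the kinase that phosphorylates mevalonate, measured 25.1, 23.1 and 26 FPKM under HAND1 sgRNA, against 28.5, 29.3 and 29.4 FPKM under Luciferase sgRNA. The mean fell by 14.9% and the groups did not overlap. The log2 difference was -0.23 (SE 0.06, 95% interval -0.35 to -0.10, limma, adjusted p = 0.0422). This call was the least firm of the 4, since leaving out any single library ended it (adjusted p up to 0.136). MVK measured 24.9, 26.1 and 26.1 FPKM under ETV1 sgRNA, also below all controls, with an adjusted p of 0.425 (limma). The gene overlaps MMAB on the other strand, which a non-stranded library cannot separate, and MMAB averaged 7.85 FPKM under HAND1 sgRNA and 8.73 FPKM under Luciferase sgRNA.

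TM7SF2 encodes a sterol reductase that acts after lanosterol is demethylated, and it was the only gene of the group called higher. The uncalled log2 differences of PMVK (0.18), LSS (0.05), SREBF1 (0.05) and IDI1 (0.02) were also above 0. TM7SF2 measured 21.3, 22.0 and 19.3 FPKM under HAND1 sgRNA, against 13.6, 15.7 and 17.2 FPKM under Luciferase sgRNA. The Luciferase libraries differed more among themselves than those of HAND1 sgRNA, and replicate 3 was the highest of them. The mean was higher by 34.5%, and the log2 difference was 0.41 (SE 0.08, 95% interval 0.22 to 0.60, limma, adjusted p = 0.0161). Under ETV1 sgRNA it measured 17.9, 17.6 and 17.2 FPKM, of which 2 lay above the highest control (log2 difference 0.18, limma, adjusted p = 0.637). TM7SF2 shares exon sequence with VPS51 on the same strand, which averaged 54.1 FPKM under HAND1 sgRNA and 50.6 FPKM under Luciferase sgRNA (log2 difference 0.10, limma, adjusted p = 0.620), so part of its value is uncertain.

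**Figure D2:**
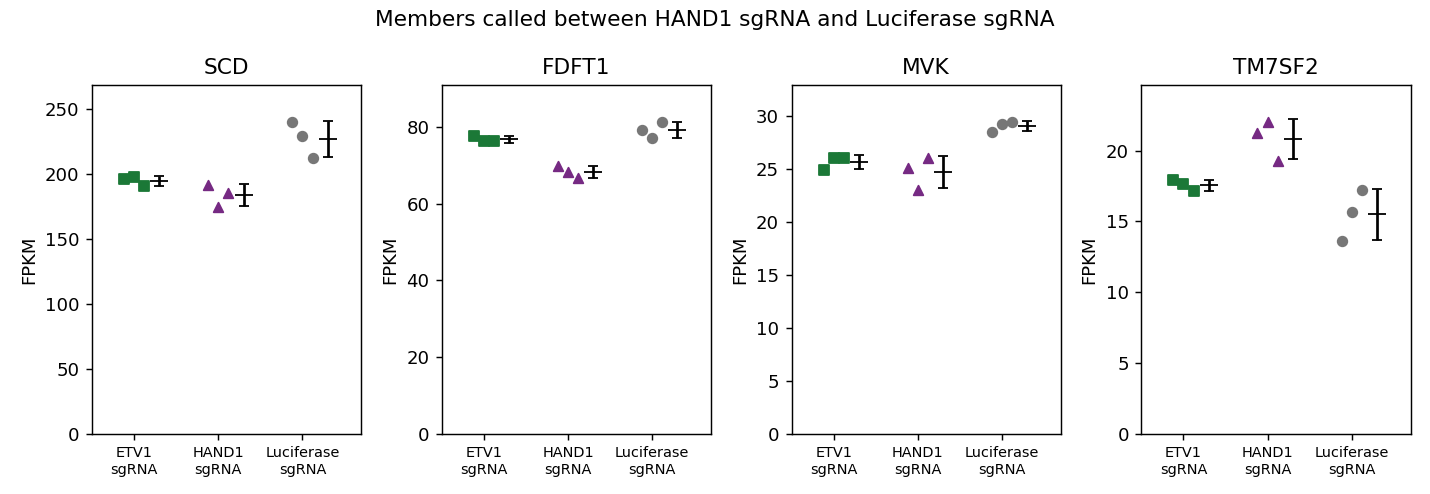
FPKM of SCD, FDFT1, MVK and TM7SF2 in each library (points) with the mean and SD of each group of 3. The HAND1 sgRNA libraries lie below the Luciferase libraries for SCD, FDFT1 and MVK and above them for TM7SF2.

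The genes are taken next in the order of their steps. In the mevalonate pathway, 6 of 7 log2 differences were below 0 under ETV1 sgRNA and 5 of 7 under HAND1 sgRNA, with medians of -0.11 and -0.09 against Luciferase sgRNA. HMGCS1, the cytosolic HMG-CoA synthase, averaged 28.9 ± 0.307 FPKM under ETV1 sgRNA, 30.7 ± 2.23 FPKM under HAND1 sgRNA and 32.8 ± 1.70 FPKM under Luciferase sgRNA (SD, n = 3 each). ACAT2, the thiolase before it, averaged 49.1 ± 1.96, 47.6 ± 5.04 and 53.7 ± 0.941 FPKM in the same 3 groups. IDI1, the isopentenyl diphosphate isomerase, had means of 35.5 ± 1.34, 33.6 ± 1.54 and 33.1 ± 0.916 FPKM, the highest under ETV1 sgRNA. None of these 3 genes was called, and ACAT2 overlaps TCP1 and SOD2.

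The remaining enzymes of this route have short transcripts, and their control values were spread by Luciferase replicate 3. PMVK measured 19.7, 23.5 and 16.5 FPKM under ETV1 sgRNA, 22.2, 24.3 and 24.1 FPKM under HAND1 sgRNA, and 16.4, 18.3 and 29.1 FPKM under Luciferase sgRNA. The single control value of 29.1 FPKM exceeded all other libraries. MVD, the decarboxylase that follows, averaged 37.4 ± 2.14, 38.0 ± 1.71 and 40.4 ± 7.32 FPKM under ETV1, HAND1 and Luciferase sgRNA, and FDPS, the farnesyl diphosphate synthase, 96.1 ± 2.29, 95.9 ± 3.23 and 104 ± 9.70 FPKM. In both the wide control spread comes from the same library.

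In squalene and sterol synthesis, 9 of 10 differences were below 0 under ETV1 sgRNA and 8 of 10 under HAND1 sgRNA, with medians of -0.08 and -0.07. FDFT1 and TM7SF2 were called under HAND1 sgRNA, as described above, and the other 8 enzymes were not called. SQLE averaged 108 ± 0.808 FPKM under ETV1 sgRNA, 112 ± 1.75 FPKM under HAND1 sgRNA and 113 ± 4.85 FPKM under Luciferase sgRNA. EBP, the sterol isomerase, averaged 121 ± 1.24, 122 ± 2.44 and 133 ± 14.3 FPKM in the same order, and CYP51A1, the lanosterol demethylase, 69.0 ± 3.39, 67.5 ± 2.09 and 71.1 ± 1.74 FPKM. LSS, which closes squalene epoxide into lanosterol, averaged 37.4 ± 1.46, 42.9 ± 0.979 and 41.4 ± 2.80 FPKM. The lower enzymes of the list were NSDHL (37.4 ± 2.25, 38.0 ± 2.47 and 43.3 ± 6.08 FPKM), SC5DL (13.6 ± 0.889, 13.1 ± 0.370 and 13.8 ± 0.513 FPKM) and HSD17B7 (9.18 ± 1.66, 9.98 ± 1.16 and 10.2 ± 2.03 FPKM). These 3 remove methyl groups or set double bonds of the sterol ring, and none was called. The control means of EBP, NSDHL and HSD17B7 were raised by Luciferase replicate 3, which measured 149, 48.5 and 12.04 FPKM and was the highest library for each of them.

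No regulator was called. SREBF1, the gene of the SREBP that mainly drives fatty acid genes, averaged 45.9 ± 0.498 FPKM under ETV1 sgRNA, 46.5 ± 2.33 FPKM under HAND1 sgRNA and 45.0 ± 1.16 FPKM under Luciferase sgRNA. SREBF2, whose product mainly drives cholesterol genes, averaged 30.4 ± 1.88, 31.5 ± 1.89 and 32.5 ± 2.32 FPKM, and SCAP, their escort, 9.62 ± 0.327, 9.49 ± 1.14 and 10.2 ± 0.380 FPKM. INSIG1 averaged 117 ± 1.97 FPKM under HAND1 sgRNA, and INSIG2, its paralog, averaged 2.95 ± 0.761, 3.15 ± 0.624 and 3.45 ± 0.244 FPKM in the 3 groups. Transcript levels do not show how much SREBP protein is cut or nuclear, which was not measured.

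All 8 fatty acid and lipid synthesis genes had differences below 0 in both comparisons, with medians of -0.09 under ETV1 sgRNA and -0.14 under HAND1 sgRNA (7 of 8 under HAND1 sgRNA after median centring). ACLY, which makes cytosolic acetyl-CoA from citrate, measured 91.5, 93.4 and 93.2 FPKM under ETV1 sgRNA, 87.9, 82.9 and 87.9 FPKM under HAND1 sgRNA, and 101, 100.3 and 93.5 FPKM under Luciferase sgRNA. It missed the threshold under HAND1 sgRNA (log2 difference -0.19, limma, adjusted p = 0.0560) and passed it without Luciferase replicate 3 (adjusted p = 0.0194). FASN averaged 127 ± 10.3, 126 ± 6.57 and 138 ± 11.7 FPKM under ETV1, HAND1 and Luciferase sgRNA, and ACACA, the acetyl-CoA carboxylase, 9.23 ± 0.631, 9.78 ± 0.552 and 9.89 ± 0.636 FPKM. The groups of both genes overlapped.

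ELOVL6, the elongase that feeds SCD, averaged 16.2 ± 0.649 FPKM under ETV1 sgRNA, 15.8 ± 0.965 FPKM under HAND1 sgRNA and 18.0 ± 0.405 FPKM under Luciferase sgRNA, with adjusted p-values (limma) of 0.563 and 0.132. FADS2, the first desaturase of polyunsaturated fatty acids, averaged 96.5 ± 5.85, 92.8 ± 1.27 and 103 ± 3.71 FPKM, and FADS1, which acts after it, 4.57 ± 0.690, 4.40 ± 0.256 and 4.68 ± 0.309 FPKM. The 2 genes overlap each other. FADS2 also shares exon sequence with FEN1 on the same strand, so part of its value is uncertain. FEN1 averaged 83.3, 83.1 and 87.8 FPKM under ETV1, HAND1 and Luciferase sgRNA. LPIN1, a phosphatidate phosphatase of lipid assembly, averaged 13.2 ± 0.198, 13.5 ± 0.983 and 14.1 ± 0.939 FPKM. Of the transport genes, NPC1, which exports cholesterol from lysosomes, averaged 11.9 ± 0.669, 11.9 ± 1.04 and 12.7 ± 1.14 FPKM, and STARD4, which carries sterols between membranes, 10.01 ± 2.36, 9.15 ± 0.369 and 9.97 ± 2.30 FPKM. The groups of both overlapped.

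The third comparison sets HAND1 sgRNA against ETV1 sgRNA without the Luciferase libraries in the difference. None of the 32 genes was called, where 4.05% of all genes were. At an unadjusted p under 0.05, FDFT1 was lower under HAND1 sgRNA and LSS and TM7SF2 were higher, against 7.69% of all genes lower and 7.68% higher. The difference was below 0 for 16 of 32 genes (50%; 51.1% of all genes), and its median was 0.002, against -0.003 for all genes. The groups did not overlap for 5 of the 32 genes (15.6%; 22.4% of all genes), with FDFT1 and ACLY lower and LSS, TM7SF2 and SQLE higher under HAND1 sgRNA. FDFT1 averaged 68.3 ± 1.61 FPKM under HAND1 sgRNA and 76.8 ± 0.860 FPKM under ETV1 sgRNA, with no overlap (log2 difference -0.17, SE 0.05, limma, adjusted p = 0.0776). Without Luciferase replicate 3, which enters only the shared estimate of the spread, FDFT1 was called (adjusted p = 0.0469). SCD, at 184 ± 8.47 FPKM under HAND1 sgRNA and 194 ± 3.60 FPKM under ETV1 sgRNA, had a log2 difference of -0.08 with a 95% interval of -0.22 to 0.05. LSS measured 43.5, 41.7 and 43.3 FPKM under HAND1 sgRNA, against 38.9, 37.1 and 36.0 FPKM under ETV1 sgRNA (log2 difference 0.19, SE 0.06, limma, adjusted p = 0.119). A p that misses the threshold does not show that the sgRNAs act alike on these genes.

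**Figure D3:**
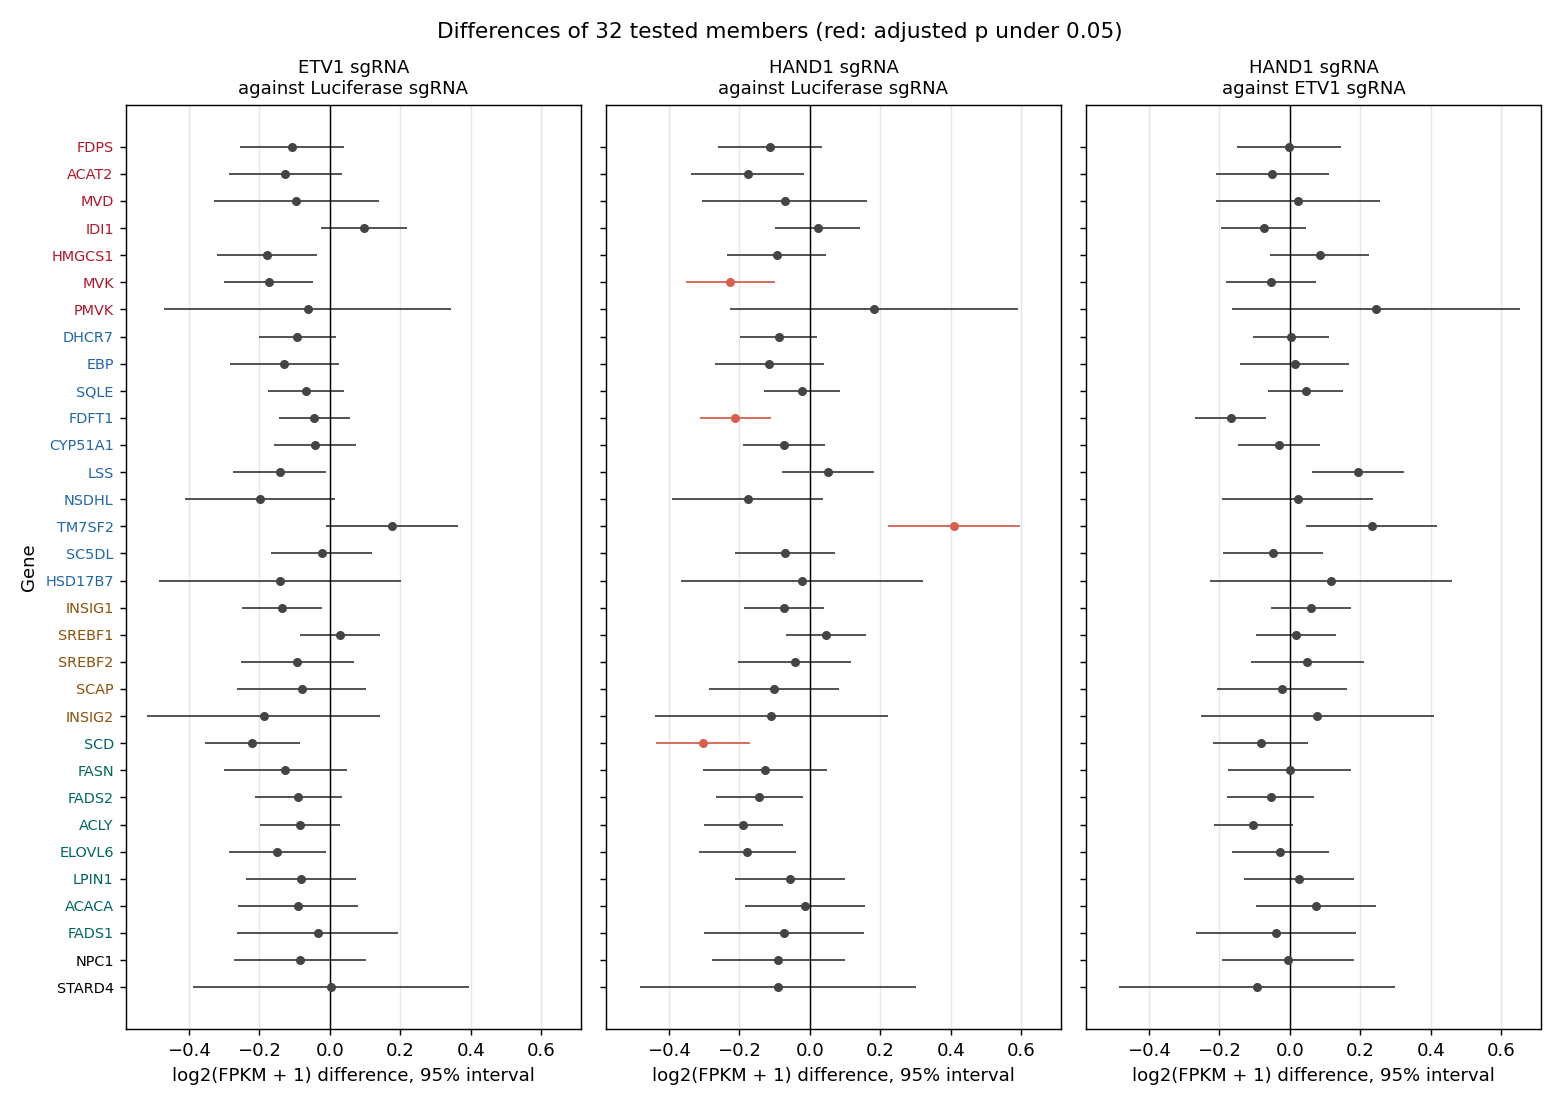
Log2 difference with its 95% interval for each of the 32 tested genes in the 3 comparisons, with the sgRNA named first minus the one named after it. Red marks the 4 genes called under HAND1 sgRNA; most points lie left of 0 in both comparisons with Luciferase sgRNA and around 0 between the sgRNAs of HAND1 and ETV1.

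Summed over all 33 genes, the FPKM came to 1707, 1702 and 1699 under ETV1 sgRNA, 1712, 1673 and 1697 under HAND1 sgRNA, and 1852, 1812 and 1852 under Luciferase sgRNA. The sums of both sgRNA groups lay below all controls. As a share of all FPKM of a library, the genes took 0.361%, 0.368% and 0.354% under ETV1 sgRNA, 0.379%, 0.351% and 0.369% under HAND1 sgRNA, and 0.408%, 0.391% and 0.344% under Luciferase sgRNA. On that scale the groups overlapped, and Luciferase replicate 3 had the lowest share of all 9 libraries. The fatty acid and lipid genes alone summed to 560.4, 551 and 549 FPKM under ETV1 sgRNA and 549, 516 and 533 FPKM under HAND1 sgRNA. Under Luciferase sgRNA they summed to 635, 621 and 583 FPKM. Their shares of all FPKM were 0.119%, 0.119% and 0.114% under ETV1 sgRNA and 0.122%, 0.108% and 0.116% under HAND1 sgRNA. Under Luciferase sgRNA the shares were 0.14%, 0.134% and 0.108%, so the groups overlapped on that scale too.

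The control library that stands apart touched the short members most. Compared with the mean of the other 2 Luciferase libraries, the 7 tested genes with transcripts under 2000 nt (HSD17B7, PMVK, FDPS, TM7SF2, EBP, MVD and NSDHL) had a median log2 deviation of 0.26 in replicate 3, and the 25 longer ones of -0.04. Over all genes with a known length, the corresponding medians were 0.18 and -0.03. Across the 32 genes, transcript length and deviation had a Spearman correlation of -0.723, and across 10318 genes of all kinds -0.461; both describe 1 library set against 2. PMVK deviated by 0.72, MVD by 0.42 and STARD4 by -0.51.

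Without Luciferase replicate 3, PMVK had a log2 difference of 0.18 under ETV1 sgRNA, against -0.06 with all libraries, and MVD had 0.05, against -0.09. Under HAND1 sgRNA PMVK had 0.42 without it, against 0.18 with all libraries, and MVD 0.07, against -0.07. EBP had -0.04 under ETV1 sgRNA and -0.03 under HAND1 sgRNA without it, against -0.13 and -0.11 with all libraries, and FDPS had -0.03 and -0.04, against -0.11 in both. NSDHL had -0.11 under ETV1 sgRNA and -0.09 under HAND1 sgRNA, against -0.20 and -0.18, and HSD17B7 had -0.03 and 0.09, against -0.14 and -0.02. The long transcripts FASN and STARD4 shifted to lower values, with -0.20 in both comparisons for FASN, against -0.13 with all libraries, and -0.17 and -0.26 for STARD4, against 0.003 and -0.09. PMVK, MVD, EBP, FDPS, NSDHL, HSD17B7, FASN and STARD4 were not called with or without that library. SCD kept its direction and had -0.27 under ETV1 sgRNA and -0.35 under HAND1 sgRNA (limma, adjusted p = 0.105 and 0.00326). Below 0 without that library were 27 of 32 genes under ETV1 sgRNA (median -0.10) and 25 of 32 under HAND1 sgRNA (median -0.08), against medians of 0.004 and -0.003 for all genes. The calls under HAND1 sgRNA were then SCD, FDFT1 and ACLY (lower) and TM7SF2 (higher), while MVK was not called (adjusted p = 0.0822).

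**Figure D4:**
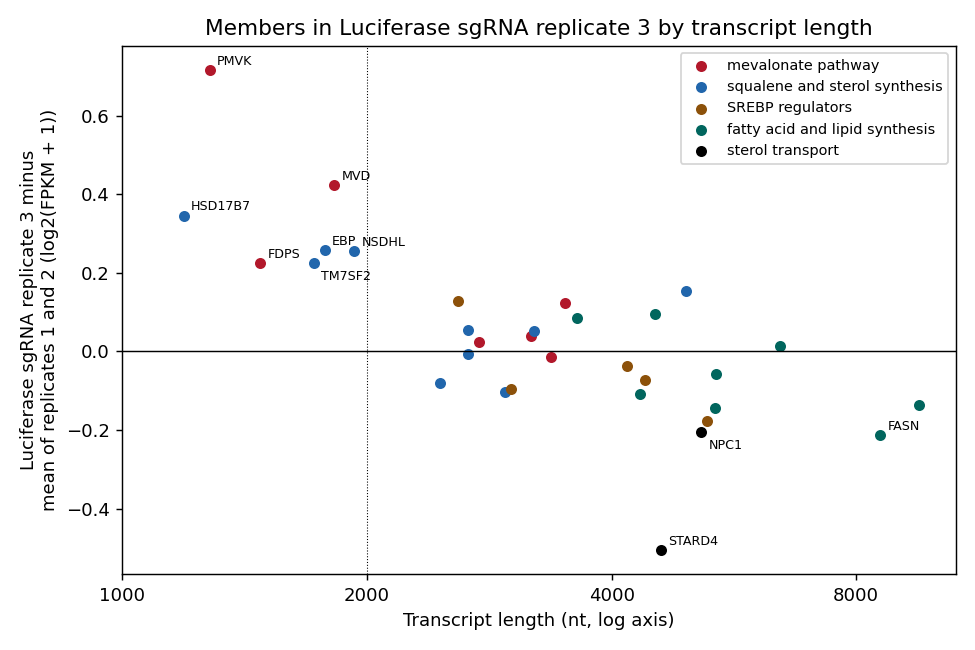
Log2(FPKM + 1) of Luciferase sgRNA replicate 3 minus the mean of replicates 1 and 2, for each of the 32 tested genes, against transcript length in nt on a log axis. Points are genes coloured by role and the dotted line is at 2000 nt; 7 short genes have a median of 0.26 and 25 longer ones of -0.04.

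The 4 calls under HAND1 sgRNA differed in how firmly they held over 18 other settings, 9 of which left out a library. TM7SF2 was called in 16, with log2 differences of 0.32 to 0.48. SCD was called in 14, with differences of -0.35 to -0.22, and quantile normalization ended its call (adjusted p = 0.277). With quantile normalization 0 genes were called lower and 1 higher, and with median centring 2 lower and 1 higher, against 3 lower and 1 higher in the values as deposited. FDFT1 was called in 13 and MVK in 4. The number of called genes was 2 without HAND1 sgRNA replicate 1, 1 without its replicate 3, and 2 without Luciferase replicate 1 or replicate 2. Without HAND1 sgRNA replicate 2, none of the 32 genes was called, with adjusted p-values (limma) of 0.0593 for SCD, 0.0652 for FDFT1, 0.136 for MVK and 0.0687 for TM7SF2.

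**Figure D5:**
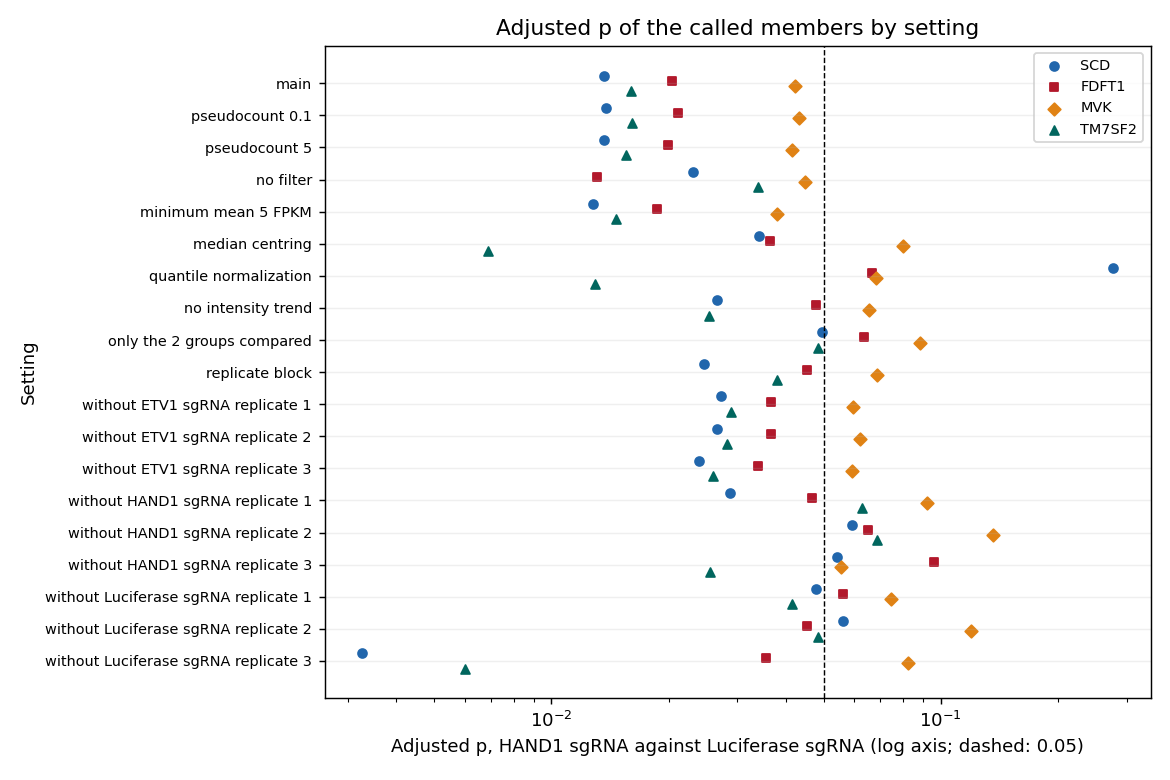
Adjusted p (limma, log axis) of SCD, FDFT1, MVK and TM7SF2 for HAND1 sgRNA against Luciferase sgRNA under the main setting and 18 others. Points left of the dashed line at 0.05 are called; TM7SF2 and SCD lie left of it most often and MVK least often.

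Other genes of sterol and fatty acid handling were followed as a separate list of 74 genes, of which 60 were tested. None was called in any of the 3 comparisons (limma), where 0.203%, 6.60% and 4.05% of all tested genes were, in their order above. At an unadjusted p under 0.05, ETV1 sgRNA had 3 genes higher and 3 lower than Luciferase sgRNA, against 4.59% and 3.60% of all genes. For HAND1 sgRNA and the same controls, 5 were higher and 5 lower, against 10.5% and 9.83%. Between the sgRNAs of both targets, 2 were higher and 6 lower under HAND1 sgRNA, against 7.68% and 7.69%. The median log2 differences were 0.02, -0.01 and -0.02. Differences were below 0 for 26, 31 and 35 of the 60 genes, against 53.1%, 53.9% and 51.1% of all genes. The 2 genes with the smallest p under ETV1 sgRNA were ACAT1, the mitochondrial thiolase, with 22.9 ± 2.45 FPKM under ETV1 sgRNA and 28.3 ± 2.96 FPKM under Luciferase sgRNA (adjusted p = 0.370), and SCARB1, a lipoprotein receptor, with 89.8 ± 2.71 and 100.1 ± 3.66 FPKM (adjusted p = 0.396). Under HAND1 sgRNA they were ACSL1, which activates fatty acids, with 17.3 ± 1.37 FPKM under HAND1 sgRNA and 13.7 ± 0.778 FPKM under Luciferase sgRNA (adjusted p = 0.0618), and again SCARB1 with 88.8 ± 0.458 and 100.1 ± 3.66 FPKM (adjusted p = 0.0649). Between the sgRNAs of HAND1 and ETV1 they were MID1IP1, a protein that promotes assembly of acetyl-CoA carboxylase, with 34.1 ± 1.17 FPKM under HAND1 sgRNA and 43.6 ± 2.12 FPKM under ETV1 sgRNA (adjusted p = 0.0710), and LIPA, the lysosomal acid lipase, with 24 ± 1.18 and 19.8 ± 1.68 FPKM (adjusted p = 0.108).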

How the data were processed

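PolyA RNA of GIST-T1 was extracted with an RNeasy Plus kit and sequenced on a NovaSeq6000 from non-stranded NEBNext Ultra II libraries, per the labels' protocols. The authors deposited FPKM, 1 value per gene symbol and library. STAR, Cufflinks and hg19 are named per the submitters' processing notes; the annotation, filters and tool versions used are not given in those notes or labels. FPKM are not counts, so no count model was used. Genes sharing exons or lying antisense cannot be told apart in a non-stranded library.

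Of 23610 genes, 6473 were at 0 in all 9 libraries (values below 1e-06 were read as 0). The 11348 with a mean of at least 1 FPKM were fitted as log2(FPKM + 1), a scale that understates changes of low genes, with limma 3.58.1 in R 4.3.3. The group was the only term, the variance prior followed an intensity trend, and 6 residual and 4.15 prior degrees of freedom resulted. Tests were two-sided, p-values were Benjamini-Hochberg adjusted over all genes tested, and genes under 0.05 were called. The fit was tested on simulated data. Relative depth came from the steps between the lowest FPKM values. Transcript lengths and gene overlaps came from GENCODE 29, which is of another build, and no coordinates were taken from it. Promoters were searched and tables joined in Python 3.11.15.

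The members and lists were chosen with earlier results of these data known. Values in each library are given for called members and for the 2 with the highest mean, and where no gene of the 74 others was called, the 2 with the smallest p are named. Values of ACLY, LSS and PMVK in each library were added after they were seen. Alternatives were the pseudocount, the filter, the scaling, the trend, the samples in the fit, a replicate block and leaving out each library.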

Additional observations from a re-analysis of the deposited data

How the results depend on the processing

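Under ETV1 sgRNA, no alternative called a member. Against Luciferase sgRNA, 4 members were called under HAND1 sgRNA, 1 after quantile normalization, 2 with only the 2 groups in the fit, and between 0 and 4 when 1 library was left out. The 0 arose without HAND1 sgRNA replicate 2. Between the sgRNAs of HAND1 and ETV1, 1 member (FDFT1, adjusted p = 0.0484) was called with no filter, and 0 to 1 when 1 library was left out. Over all genes, 23 were called under ETV1 sgRNA, 14 with only the 2 groups and 11 (without ETV1 sgRNA replicate 1) to 26 (without Luciferase sgRNA replicate 3) when 1 library was left out; under HAND1 sgRNA 749, and 433 (without HAND1 sgRNA replicate 3) to 730; between both 460, and 271 (without HAND1 sgRNA replicate 1) to 583. Deviations of same-numbered libraries had correlations of -0.146 to 0.138, and those of differently numbered libraries -0.126 to 0.196. With 3 libraries a group, these values cannot show whether a shared number marks a shared culture or batch. With the replicate block, 16, 632 and 364 genes and 0, 3 and 0 members were called. Quantile normalization ended the calls of SCD (adjusted p = 0.277), FDFT1 (0.0664) and MVK (0.0683); the cause was not tested. No called member changed direction in any alternative. Differences that were uncalled in both settings changed sign 10, 13 and 34 times in the 3 comparisons. Absolute depth is unknown, and 3 libraries a group limit the precision.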
